A study of Arabidopsis thaliana with 6 samples.

Results

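Among the protein-coding genes of Arabidopsis flower buds, 98 had much less RNA in plants carrying a ddm1 mutation than in wild type plants. They were selected on the measured values themselves. Each was read by a probe set that names 1 protein-coding gene, its mean in ddm1 lay at least 1.5 log2 units (2.83-fold) below its wild type mean, its highest ddm1 array lay below its lowest wild type array, and the SD of its ddm1 arrays was at most 0.75. Of 12443 such probe sets on the array, 113 met these limits. Of these, 15, among them the sugar transporter gene AtVEX1 and the actin gene ACT12, belong to loci set aside by name, which leaves the 98 (0.788% of the 12443). Because these values chose the genes, their differences between the genotypes are given as a description, with no test.

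The 6 arrays compare RNA from unopened flower buds of 2 genotypes, with 3 biological replicates each. One is wild type of the Col accession. The other carries ddm1 and is labelled as inbred generation 6, and no allele or origin of the mutation is given in the labels used here. Growth was in soil under 18 hours of daily light, at 23 °C. An inbred generation is given for ddm1 only, so loss of DDM1 and the inbreeding history of the mutant plants cannot be told apart. DDM1 itself was not analysed here, so it gives no check of the genotype labels.

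DDM1 is a nucleosome remodeller of plant chromatin. It lets DNA methyltransferases reach heterochromatin, and its loss lowers DNA methylation and activates transposable elements, while inbred ddm1 lines gather heritable defects over the generations. Unopened buds hold sepals, petals and carpels together with anthers, in which meiosis, the tapetum (the nursing layer around the pollen chamber) and maturing pollen follow each other in time. Late pollen makes large amounts of RNA for enzymes that loosen pectin in the cell wall and for ion transporters, both used when the pollen tube grows. In a whole bud, fewer cells of a type and less RNA per cell cannot be told apart.

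The values are the deposited log2 values, centred gene by gene on a baseline that the labels used here do not name. A value of 0 is therefore the baseline of that gene and not an absence of RNA, and whether a gene lay above background in either genotype is unknown. Differences below are ddm1 minus wild type, ± the standard error (SE) from a limma fit over all 22746 probe sets, n = 3 arrays per genotype. Array medians over all probe sets lay between -0.00642 and 0.0175, and the median difference over the 12443 protein-coding probe sets was 0.00183.

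Across the 98 genes the difference ran from -4.09 to -1.501, with a median of -1.93, which is a 3.81-fold lower value. In 45 genes it was -2 or lower, in 15 it was -2.5 or lower and in 3 it was -3 or lower, and the other 53 lay between -2 and -1.5. Wild type arrays spanned -0.485 to 1.22 over these genes and ddm1 arrays -4.71 to -0.562. The space between the lowest wild type and the highest ddm1 array had a median of 1.54 and was wider than 1 in 89 of the 98. By limma with Benjamini-Hochberg adjustment 97 of the 98 were called lower, beside 5.51% of all protein-coding probe sets, and complete separation of the groups in that direction held in 17% of them. Nothing is read from either count, since the same values chose the genes.

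**Figure D1:**
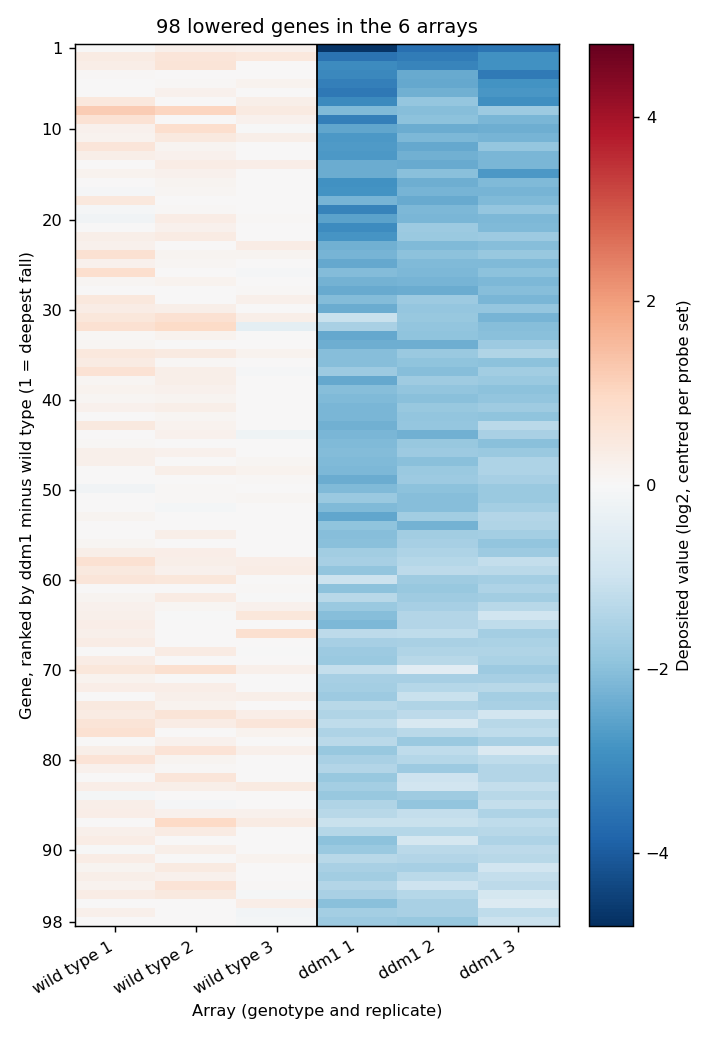
Deposited log2 values, centred per probe set, of the 98 genes (lines, ranked by difference) in the 6 arrays (columns), with blue below and red above the baseline. The 3 ddm1 columns are blue throughout, from -4.71 to -0.562, while wild type stays between -0.485 and 1.22.

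The deepest fall was at AT2G29790. Wild type replicates 1 to 3 read 0, 0.229 and 0.218, while ddm1 replicates 1 to 3 read -4.71, -3.61 and -3.50. All ddm1 arrays lay far below all wild type arrays, replicate 1 lowest, and the difference was -4.09 ± 0.34, or 17.0-fold. AT4G10060 stood at 0.407, 0.563 and 0.506 against -3.54, -3.35 and -2.89. Its wild type arrays were close together, its groups were 3.30 apart at their nearest, and it differed by -3.76 ± 0.17 (13.5-fold). AT2G43610 gave 0.324, 0.611 and 0 against -3.02, -3.18 and -2.90. Here the ddm1 arrays were the tighter group, and the difference was -3.34 ± 0.17 (10.1-fold).

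The next on the list carries a RefSeq symbol. CHX19 (AT3G17630) encodes a cation/proton exchanger, of a family with many members active in pollen. Its wild type arrays gave 0.0545, 0 and 0.0039 and its ddm1 arrays -3.09, -2.42 and -3.38. Wild type was nearly flat, ddm1 replicate 2 was the least low, and CHX19 was 7.89-fold lower (-2.98 ± 0.25). AT1G71680 read 0, 0.0484 and 0.158 against -3.26, -2.46 and -2.86, with ddm1 replicate 2 again the least low (-2.93 ± 0.21). AT2G16750 read 0, 0.213 and 0 against -3.41, -2.30 and -2.79, the same order of ddm1 arrays and a difference of -2.90 ± 0.29. In AT4G10440 replicate 2 stood further off, with 0.498, 0 and 0.265 in wild type, against -3.06, -1.87 and -2.94 in ddm1 (-2.88 ± 0.35).

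The last 3 of the 10 deepest falls varied between arrays in different ways. AT2G34700 held the highest wild type value of the whole group, with 1.22, 1.04 and 0.442 against -2.12, -2.06 and -1.73. Its wild type arrays were thus spread and its ddm1 arrays close (-2.87 ± 0.23). In AT3G18360 both genotypes varied, with 0.699, 0 and 0.215 against -3.27, -1.96 and -2.20 and a ddm1 SD of 0.700, near the limit (-2.78 ± 0.39). AT1G52000 read 0.202, 0.821 and -0.0362 in wild type, against -2.51, -2.36 and -2.34 in ddm1. Its ddm1 arrays nearly coincided and wild type replicate 2 stood above the other two (-2.73 ± 0.23).

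**Figure D2:**
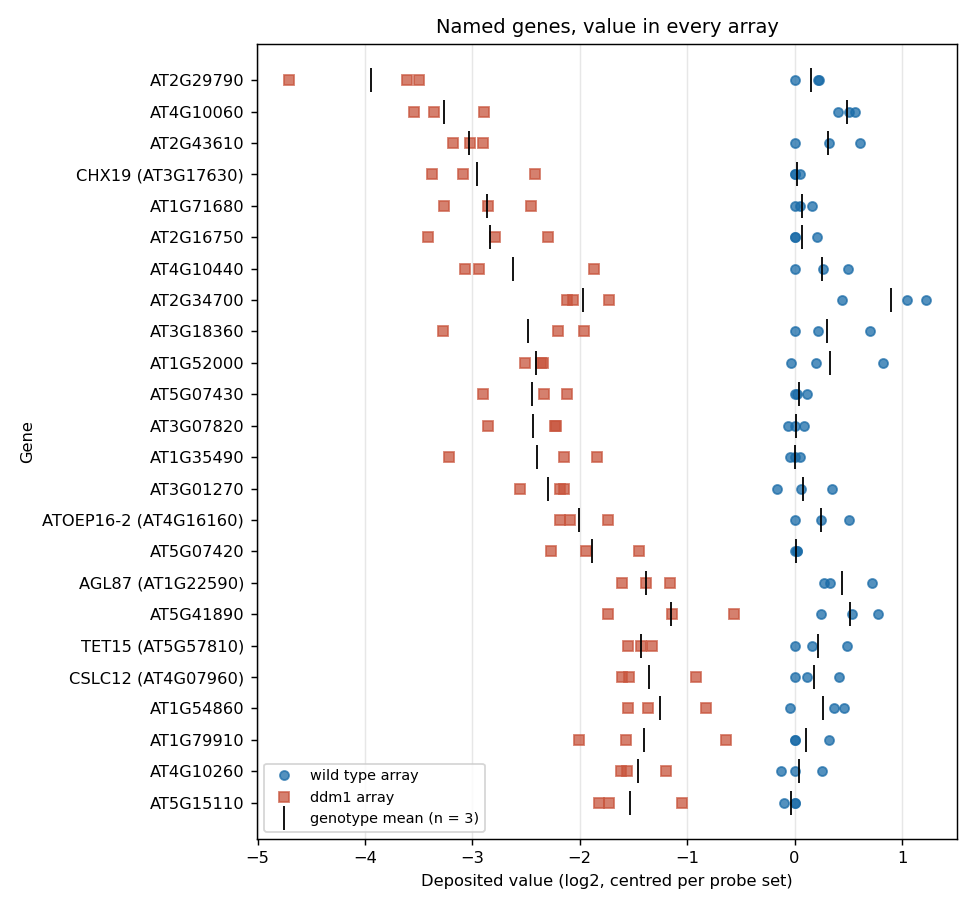
Value of 24 of the genes in every array (deposited log2 values, centred per probe set), with circles for wild type, squares for ddm1 and a black bar for each genotype mean (n = 3). By the selection, no gene has a ddm1 array at or above a wild type array. The narrowest gap, at AT1G79910, is 0.640.

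Of the gene lists used here, that of enzymes remodelling the pollen cell wall had the most genes in the group. It names 15 genes, holding polygalacturonases, pectate lyases and pectin methylesterases known from pollen, of which 5 were measured, and all 5 are among the 98. AT5G07430 read 0, 0.116 and 0.0186 in wild type, against -2.90, -2.33 and -2.12 in ddm1 (-2.49 ± 0.20, 5.63-fold lower). AT3G07820 read -0.0616, 0.0925 and 0.0004 against -2.85, -2.23 and -2.22 (-2.44 ± 0.19, 5.44-fold). In both, ddm1 replicate 1 was the lowest array and the groups were far apart. AT3G01270 gave -0.166, 0.346 and 0.0598 against -2.55, -2.18 and -2.15, with the same array lowest (-2.37 ± 0.17). The other two of the list had ddm1 replicate 2 lowest and replicate 3 least low. AT5G07420 read 0.0255, 0.0226 and 0 against -1.94, -2.27 and -1.45 (-1.90 ± 0.21), and AT5G15110 read 0, 0 and -0.0942 against -1.73, -1.82 and -1.05 (-1.501 ± 0.21). The median difference of the list was -2.37, and the selection held it at -1.5 or lower. Of all protein-coding probe sets 0.788% are among the 98. All 5 were selected on this contrast, and the list was written with earlier results of these data known. Neither the count nor the median therefore says more about the list.

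Besides CHX19, a further 4 genes carry a RefSeq symbol. ATOEP16-2 encodes a channel-type protein of the outer plastid envelope. It read 0.503, 0 and 0.244 against -2.09, -1.73 and -2.18. Every ddm1 array lay well below wild type, and the difference was -2.25 ± 0.17 (4.77-fold). AGL87, of the MADS-box family of transcription factors, read 0.723, 0.278 and 0.331 against -1.60, -1.38 and -1.16. All its wild type arrays lay above the baseline, replicate 1 highest (-1.83 ± 0.17). TET15 encodes a tetraspanin, a small membrane protein that organises others. It gave 0.487, 0.163 and 0 against -1.32, -1.43 and -1.55, with tight ddm1 arrays (-1.65 ± 0.14). CSLC12 belongs to the cellulose-synthase-like C family, which makes the glucan backbone of xyloglucan in the cell wall. It read 0.12, 0.414 and 0 against -1.54, -1.61 and -0.915, with ddm1 replicate 3 least low (-1.53 ± 0.22, 2.89-fold).

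The remaining 88 genes have no RefSeq symbol and are on no list, and they are given by their locus names. One, AT3G13610, has the RefSeq synonym F6'H1, an enzyme needed to make the coumarin scopoletin, and was picked out after its values had been seen. Its arrays read 0.541, 0.729 and 0.289 in wild type, against -1.06, -1.83 and -2.23 in ddm1. It was least low in ddm1 replicate 1, as were 7 genes of the group in all (-2.23 ± 0.32). A second, AT5G49680, is the only one of the 98 with another probe set, and the pair disagree. The chosen probe set read 0.734, 0 and 0.171 against -1.46, -1.30 and -1.22 (-1.63 ± 0.20). The other stayed between -0.00861 and 0.0303 on all 6 arrays, and limma gave it a difference of 0.01 ± 0.03 (adjusted p = 0.871).

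Spread within a genotype divided the genes further. Their median SD was 0.176 in wild type and 0.259 in ddm1, above the medians of 0.0631 and 0.0734 over all protein-coding probe sets. An SD under 0.1 in ddm1 was found for 10 of the 98 (10.2%) and for 60.5% of all, and in wild type for 26 (26.5%) and for 66.1% of all. The SD was larger in ddm1 in 69 genes (70.4%, against 64.4% of all). The selection capped the SD of ddm1 and asked for separated groups, so these shares carry no test.

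The flattest and the most variable genes were picked out after their values had been seen. AT2G43230 had almost the same value on all ddm1 arrays, -1.597, -1.603 and -1.593, after 0.161, 0 and 0.0342 in wild type. AT3G53080 was nearly as flat, with -1.38, -1.35 and -1.33 in ddm1 and 0.250, 0.387 and 0 in wild type. At AT5G19580 the ddm1 arrays gave -2.26, -2.22 and -2.17 beneath wild type arrays of 0.0781, 0.180 and 0. In all 3 the ddm1 arrays varied less than the wild type arrays, and whether they lay near background is unknown. At the other end AT1G61590 read 0.718, 0.907 and -0.485 in wild type, where replicate 3 stood far below the other two, and -1.57, -1.91 and -2.03 in ddm1. Even so its groups were 1.08 apart (-2.22 ± 0.39). Wild type was flattest at AT5G07420, with an SD of 0.0140 where ddm1 had 0.411.

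**Figure D3:**
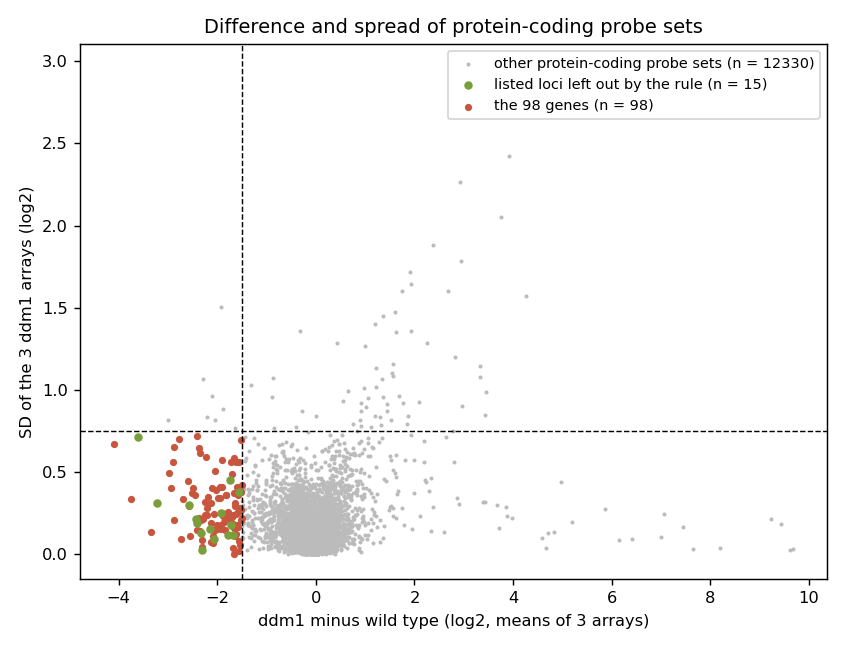
Difference of ddm1 from wild type (horizontal, log2) against the SD of the 3 ddm1 arrays (vertical, log2) for 12443 protein-coding probe sets, with dashed lines at -1.5 and 0.75. The 98 genes and the 15 left out fill the lower left field, where the SD limit leaves out 7 further probe sets with separated groups.

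Among protein-coding probe sets 121 lay at -1.5 or lower and 89 at 1.5 or higher. Limma called 5.68% of all 22746 probe sets lower and 3.5% higher, and 2.23% of the protein-coding ones higher. Just inside the size limit were AT1G79910 (-1.511), AT4G10260 (-1.502) and AT5G15110 (-1.501), and just outside AT3G21960 (-1.499), AT1G76470 (-1.491) and AT4G26830 (-1.491). For the SD of the ddm1 arrays, AT1G79910 (0.696), AT3G18360 (0.700) and AT1G35490 (0.723) were within the limit, and AT5G54570 (0.770), AT3G21970 (0.816) and AT4G22960 (0.818) beyond it. AT3G21970 (-2.999 ± 0.41) thus missed entry only through its spread. AT3G19710 was alone in being left out for overlapping groups.

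The genes nearest the limits, by array, were these. AT1G79910 read 0, 0 and 0.319 in wild type, against -2.003, -1.57 and -0.640 in ddm1, where replicate 3 lay closest to wild type, and it is the 1 gene that limma did not call. AT1G35490 read -0.0414, 0.0506 and 0 against -3.22, -2.15 and -1.84, so replicate 1 made the difference of -2.40 ± 0.36 deeper. AT5G41890 had ddm1 replicate 2 least low, with 0.534, 0.774 and 0.245 against -1.14, -0.562 and -1.73 (-1.66 ± 0.32). AT1G54860 (0.368, 0.461 and -0.0414 against -1.55, -1.37 and -0.826) and AT4G10260 (0.252, 0 and -0.123 against -1.61, -1.56 and -1.20) both had ddm1 replicate 3 least low.

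The ddm1 arrays were not equally low. Averaged over the 98 genes they stood at -2.08, -1.79 and -1.73 for replicates 1, 2 and 3, against 0.245, 0.221 and 0.0903 in wild type. Replicate 1 was the lowest ddm1 array in 69 genes (70.4%), compared with 43.1% of the 589 other protein-coding probe sets called lower and 52.1% of all protein-coding ones. Replicate 3 was the highest ddm1 array in 60 genes (61.2%), with 44.0% and 51.3% in those sets. In 47 genes replicate 1 was lowest and replicate 3 highest. Wild type replicate 3 was the lowest wild type array in 48 genes (48.98%), where 37.9% and 25.04% were found. The genes share their 6 arrays, so these counts are not independent of each other, and no test was made of them.

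By chromosome the share of measured protein-coding probe sets in the group ran from 0.632% on chromosome 2 (12 of 1900) to 0.934% on chromosome 5 (27 of 2890). Chromosomes 1, 3 and 4 held 27, 18 and 14. Loss of DDM1 acts first on heterochromatin, which is rich in transposable elements, annotated in RefSeq among pseudogenes. In windows of 25 consecutive loci at least 50% of which are pseudogenes lay 1 of the 98 genes (1.02%), CSLC12, where 68% of the window was of that type. The same held for 238 of 12374 protein-coding probe sets (1.92%).

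Some of the 98 are neighbours. Another gene of the group lay within 5 loci of 11 of them (11.2%), and 418 of 12276 other protein-coding probe sets (3.41%) lay as close to one. Of those 418, limma called 25 lower (5.98%) and 7 higher (1.67%), near the shares of 5.51% and 2.23% over all protein-coding probe sets. Their median difference was 0.00139. Of the 418, 5 belong to the loci set aside by name.

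The runs described next were chosen after their values had been seen. On chromosome 1, AT1G23520 (-2.13 ± 0.18), AT1G23650 (-2.04 ± 0.28) and AT1G23690 (-1.62 ± 0.19) lay in a stretch of 25 loci with 19 measured probe sets, of which 17 were below 0. Limma called 9 of the 19 lower, among them 4 loci set aside by name, AT1G23670 (-1.47 ± 0.10, adjusted p = 0.000887), and AT1G23700 (-0.37 ± 0.08, adjusted p = 0.0447). The call of AT1G23700 was lost whichever array was left out (adjusted p from 0.0547 to 0.120). Not every gene of the stretch was low, since AT1G23530 stood at -0.01 ± 0.12 and AT1G23680 at 0.01 ± 0.03 between them.

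Chromosome 3 holds a pair of such runs. AT3G01240 (-1.88 ± 0.14), AT3G01250 (-1.95 ± 0.19) and the cell wall enzyme gene AT3G01270 surround AT3G01260, which stood at 0.01 ± 0.03 (limma adjusted p = 0.884). Further along, AT3G28750 (-2.30 ± 0.11), AT3G28950 (-1.59 ± 0.19) and AT3G28980 (-2.05 ± 0.08) flank 4 loci set aside by name that lay between -2.57 and -2.32. Between these stood AT3G28940 at 0.63 ± 0.15 (limma adjusted p = 0.0671) and AT3G28850 at -0.01 ± 0.03. Adjacent members of the group were also AT5G07420 with AT5G07430, and AT1G54860 (-1.51 ± 0.23) with AT1G54870 (-1.98 ± 0.18). AT2G21510 (-1.83 ± 0.24) lay close to LEA (AT2G21490), set aside by name at -1.93 ± 0.17, though not directly beside it.

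In a run on chromosome 2, also chosen after its values had been seen, limma called 1 of 10 measured probe sets higher and 2 lower. The median difference of the 10 was 0.0152. AT2G43610 (-3.34) lies on chromosome 2 next to AT2G43620, which read 4.22, 2.85 and 1.95 in ddm1. Limma gave AT2G43620 a difference of 3.33 ± 0.57 (adjusted p = 0.0262), a call that was lost without wild type replicate 1, 2 or 3 or ddm1 replicate 2 (adjusted p from 0.0717 to 0.0929). CHI, a chitinase gene, read 6.09, 4.92 and 0.484 in ddm1 and was not called (3.84 ± 1.47, adjusted p = 0.202), nor was AT2G43590 (3.76 ± 1.02, adjusted p = 0.0945). In these 3 genes the ddm1 arrays differed widely from each other, while AT2G43610 stayed within -3.18 and -2.90. AT2G43550, at the edge of the stretch, was called lower (-0.61 ± 0.11, limma adjusted p = 0.0309), a call kept only without wild type replicate 3 when 1 array was left out (adjusted p from 0.0227 to 0.108). Of the others nearby, AT2G43600 and AT2G43630 stood at 0.01 ± 0.03 and 0.02 ± 0.05.

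**Figure D4:**
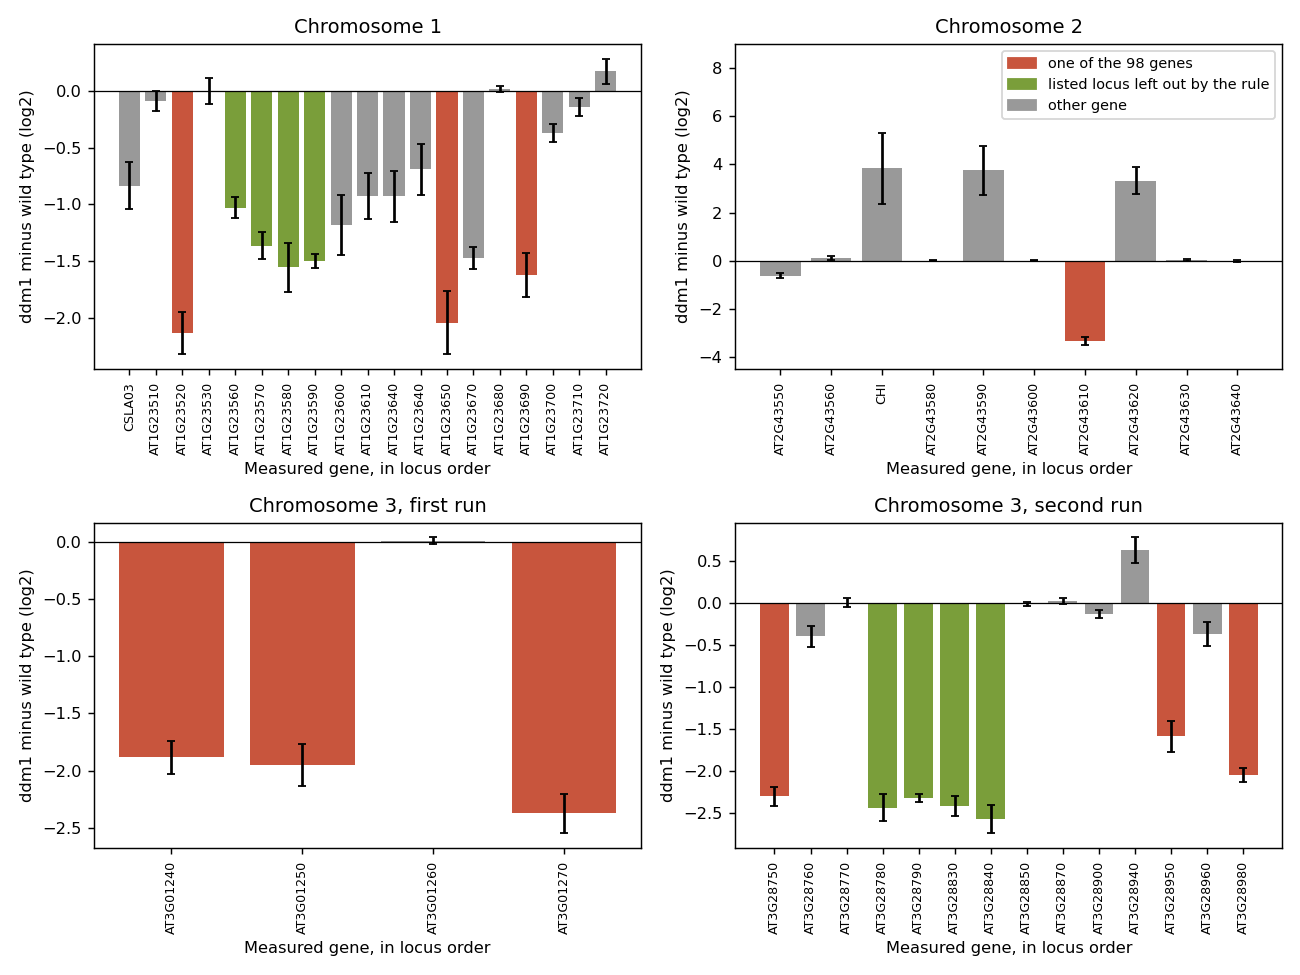
Difference of ddm1 from wild type (log2, bars with SE, n = 3 arrays per genotype) for measured protein-coding probe sets in locus order in 4 runs, with the 98 genes in red, loci set aside by name in green and others in grey. AT1G23640 has 2 probe sets, and AT2G43610 at -3.34 stands beside CHI, AT2G43590 and AT2G43620, which lie at 3.33 to 3.84.

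The wider sets of anther genes moved unevenly. In 13 lists with 165 genes, 38 were measured, of which limma called 13 lower and 1 higher, beside 5.51% and 2.23% of all protein-coding probe sets. Over the 6 pollen lists 20 of 82 genes were measured, 10 were called lower and 0 higher, again beside 5.51% and 2.23%, with a median difference of -0.64. Of the 10, 6 are among the 98 (CHX19 and the 5 cell wall enzyme genes) and were chosen on this contrast. The others were ACT12, a reproductive actin that the selection set aside, and AGL66, AGL30 and SWEET8. Without the 6 and ACT12, limma called 3 of 13 lower, and their median difference was -0.00864.

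AGL66 and AGL30 are MADS-box transcription factors that act together in maturing pollen. AGL66 read -0.0475, 0 and 0.0134 in wild type, against -0.701, -0.660 and -0.636 in ddm1, a tight and separated fall of 1.57-fold (-0.65 ± 0.03, limma adjusted p = 0.000295). AGL30 fell by 0.81 ± 0.12 SE (limma adjusted p = 0.0183), and leaving out wild type replicate 3 ended that call (adjusted p = 0.0576). SWEET8 is a sugar transporter of the anther needed for the pollen wall. It read -0.0295, 0.134 and 0 against -0.773, -0.593 and -0.410, with separated groups (-0.63 ± 0.10, limma adjusted p = 0.0231). The call of SWEET8 was lost without wild type replicate 1, 2 or 3 or ddm1 replicate 2 (adjusted p from 0.0695 to 0.0715).

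Exchanger genes of the same family as CHX19 gave values near 0. CHX15 stood at 0.01 ± 0.03 and CHX21 at 0.01 ± 0.03, each flat on all 6 arrays, and limma called neither (adjusted p = 0.913 and 0.865). The pollen signalling list had 4 of 23 genes measured and 0 called by limma, with 0 at an unadjusted p under 0.05. Its receptor kinases ANX1 and ANX2, which keep the growing pollen tube intact, stood at 0.01 ± 0.03 and -0.01 ± 0.05, and AT4G39110 of that list at -0.38 ± 0.19. AT4G39110 was called lower without ddm1 replicate 3 (-0.58, limma adjusted p = 0.0381). With such flat arrays a gene below background and an unchanged gene look alike in centred values. Among the pollen transcription factors AGL94 stood at 0.00 ± 0.03, AGL65 at -0.10 ± 0.06 and AGL104 at -0.72 ± 0.27, and none of these was called. Lists for arabinogalactan proteins of pollen and for sperm cells had 0 measured genes.

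In the tapetum lists 5 of 32 genes were measured and 3 were called lower (5.51% of all protein-coding probe sets), none of them among the 98. They were AMS, a bHLH regulator of tapetum function (-1.23 ± 0.08, limma adjusted p = 0.00099), AT5G07230 (-1.08 ± 0.10, adjusted p = 0.00313) and AT1G75920 (-1.27 ± 0.18, adjusted p = 0.0151). Leaving out wild type replicate 2 or 3 ended the call of AT1G75920 (adjusted p = 0.0556 and 0.0581). AMS read 0.191, 0.281 and 0.144 in wild type, against -1.04, -1.17 and -0.877 in ddm1, so it was lower on every ddm1 array but by less than any of the 98. EMS1, the receptor kinase that specifies the tapetum, stood at 0.01 ± 0.10, and the sporogenesis regulator SPL at -0.82 ± 0.26 was not called (limma adjusted p = 0.135).

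The lists for meiosis, floral identity, reference and photosynthesis genes gave small values. Over all protein-coding probe sets limma called 5.51% lower and 2.23% higher. Among meiosis genes it called 0 of 4, with 0 at an unadjusted p under 0.05 and a median of -0.06. Of 3 floral identity genes 0 were called and 1 (SPT, 0.29 ± 0.10) had an unadjusted p under 0.05. Of 3 reference genes 0 were called and 1 (PEX4, -0.17 ± 0.05) had one. So few genes cannot show that a list is unchanged. MER3 (meiosis) and UFO (floral identity) were flat on all 6 arrays, where an unchanged gene and one below background look alike. Photosynthesis genes, markers of green tissue, had a median of 0.35, and all 3 had an unadjusted p under 0.05. Of these LHCB4.2 was called higher (0.38 ± 0.05, limma adjusted p = 0.0141). That call was lost without wild type replicate 1 or 2 or ddm1 replicate 2 (adjusted p from 0.0509 to 0.0576). RCA, not called on all 6 arrays, was called higher without ddm1 replicate 1 (0.25, limma adjusted p = 0.0163).

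Values were averaged per array over marker lists. The pollen mean took in 13 measured genes, leaving out the 98 and ACT12. It ran from -0.0137 to 0.0495 in wild type and from -0.285 to -0.149 in ddm1. ACT12 was left out because it met the value limits of the selection. The 5 tapetum genes ran from 0.0611 to 0.274 and from -0.922 to -0.619. Over the 3 photosynthesis genes the range was -0.120 to -0.0441 in wild type and 0.172 to 0.278 in ddm1. These means of pollen and tapetum markers were thus lower, and that of green tissue markers higher, on every ddm1 array. The lists were written with earlier results of these data known. Few of their genes were measured, 20 of 82 for pollen, 5 of 32 for the tapetum and 3 of 12 for photosynthesis. The means are therefore a description of these genes and no separate evidence on cell types. The lower pollen mean did not describe most of its genes, since the median difference of the 13 was -0.00864. It came from AGL30 (-0.81), AGL104 (-0.72), AGL66 (-0.65), SWEET8 (-0.63) and AT4G39110 (-0.38). The others lay between -0.10 (AGL65) and 0.03 (ACT11). The part of a changed share of anther tissue in the values of the 98 genes was not tested.

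**Figure D5:**
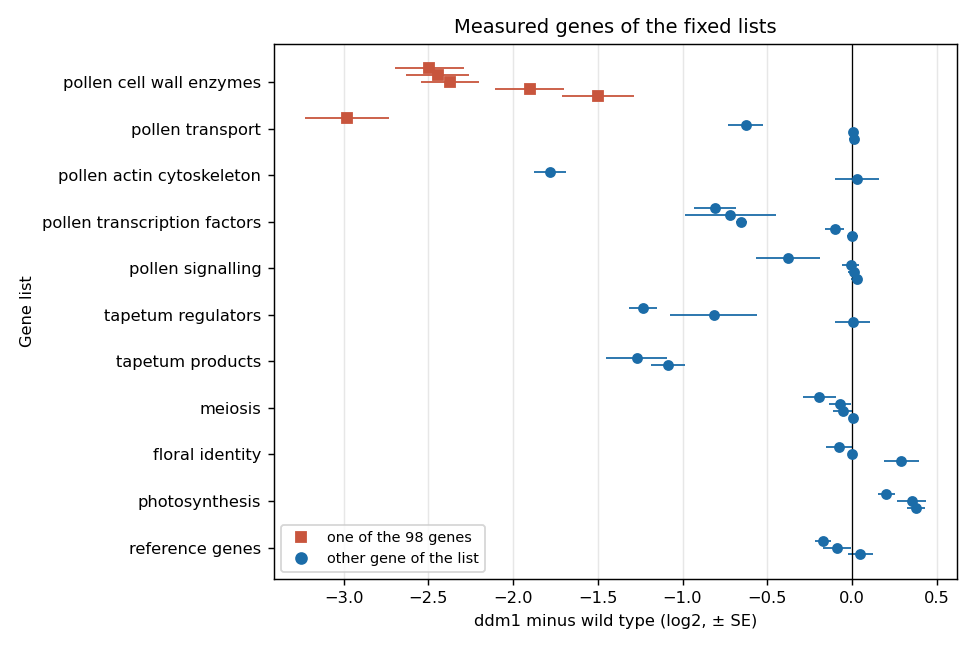
Difference of ddm1 from wild type (log2, ± SE, n = 3 arrays per genotype) for the 38 measured genes of the lists, with squares for genes among the 98 and circles for the rest. The 5 cell wall enzyme genes and CHX19 lie from -2.98 to -1.501, where the selection held them at -1.5 or lower. The remaining pollen and tapetum genes range from -1.78 (ACT12) to 0.03 (ACT11). The signalling, meiosis, floral identity and reference genes stay between -0.38 and 0.29, and the photosynthesis genes between 0.20 and 0.38.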

How the data were processed

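RNA of unopened flower buds was measured on 6 arrays, 3 per genotype. The deposited log2 values came from GCRMA (submitters' processing notes name no version), and as deposited they are centred per probe set. GCRMA compresses dim signals, so differences against a group near background can be understated. The number of arrays limits the precision, and p-values measure only the spread between these samples.

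Of 22810 probe sets, 64 controls were left out. Of the 22746 tested, 13513 name 1 gene, 503 several and 8730 none here, and names come from the first kind alone. RefSeq (TAIR10.1) gave symbols, gene types and locus order for 13436. No coordinates are printed, because the sources used here name no build for the array. All 98 genes were read by plain _at probe sets.

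Genotypes were compared with limma 3.58.1 (lmFit and eBayes, R 4.3.3), two-sided, with Benjamini-Hochberg adjustment over 22746 probe sets and calls at an adjusted p under 0.05. The fit and the selection were run on simulated data with falls of known size. For the selection these falls lay far beyond its limits, so that run does not show how it acts near them. Tables and figures used Python 3.11.15, numpy 2.4.6, pandas 2.3.3 and matplotlib 3.10.9. The members and lists were chosen with earlier results of these data known. Values in every array are given for the 10 deepest falls, genes with a RefSeq symbol or on a list, and genes nearest the limits. Grouping by protein identity or product name was planned and not run, because no protein or product table was used here.

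Whether replicate numbers pair the arrays was checked on deviations from genotype means. Same-numbered arrays correlated at 0.0752, 0.0900 and 0.0159, and differently numbered ones from -0.0907 to 0.0229. For 2 of the 3 wild type arrays the same-numbered ddm1 array correlated best. All these correlations were weak and do not settle whether the arrays were paired. The main fit did not take the numbers as pairs, and a fit with replicate as a block is given below.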

Additional observations from a re-analysis of the deposited data

How the results depend on the processing

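For the 24 named genes, 183 of 216 alternative fits kept their side of the threshold, 32 lost the call and 1 gained it. Their sign was fixed by the selection and is no sign of stability. Limma called 97 of the 98 genes lower, and 78 to 93 with 1 array left out, fewest without wild type replicate 1, 64 with a replicate block and 70 without variance moderation. Over all probe sets, 1291 were called lower, 629 to 1011 with 1 array left out (629, 733 and 775 without wild type replicates 1, 2 and 3), 553 with a replicate block, 429 without variance moderation and 3597 with array weights, which gave ddm1 replicate 2 a weight of 5.59. The cause was not tested. The group itself had 88 to 108 genes with 1 array left out, 81 to 96 of them among the 98. A size limit of -2 left 45 genes by construction, a looser one gave 144, no limit on the SD 105 and a limit of 0.5 gave 83. Of the list genes 13 were called lower, and 9 to 14 in the alternatives run, the 14 taking in AT4G39110. Leaving ACT12 out of the pollen mean was chosen after seeing the data. The replicate block ended the calls of 8 of the 24 named genes. Outside the 98, it also ended those of SWEET8, AGL30, LHCB4.2, AT2G43620, AT2G43550, AT1G23700 and AT3G21970. Replicate numbers were not taken as pairs (differently numbered arrays correlated from -0.0907 to 0.0229). Because centred values hold no level, which genes lie near background is unknown.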
